A study of Homo sapiens with 6 samples.

Results

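The E2F and retinoblastoma family comprised 10 genes, 7 of the E2F transcription factors (E2F1, E2F2, E2F3, E2F4, E2F5, E2F7 and E2F8) and the 3 pocket protein genes RB1, RBL1 and RBL2, of 19494 protein-coding genes examined. The genes were taken by name, and each was given every RNA polymerase II (Pol II) peak overlapping the gene or the 5 kb on either side of it. By this rule 19 peaks belonged to the family in siME2+αKG, 18 in siME2 and 23 in siCtrl. The cells were SK-Hep1, an established human line derived from a liver adenocarcinoma, in 3 conditions. In siME2+αKG, small interfering RNA (si) against malic enzyme 2 (ME2, a mitochondrial enzyme that turns malate into pyruvate) was combined with α-ketoglutarate. In siME2 the same knockdown was made without the metabolite, and siCtrl was the negative control. No dose or duration is given in the sources used here. The study's title concerns α-ketoglutarate, ME2 and Pol II at the cyclin D1 gene in the cell cycle. The knockdown works after transcription, so Pol II at the ME2 gene is no check of it, and ME2 transcript levels were not analysed here. Each condition had 1 Pol II ChIP library and 1 input library of this single line, so every value below describes 1 library, no condition has a replicate, and no test between conditions could be made. The siME2 and siCtrl libraries both carry the number 2 in their labels and the siME2+αKG libraries carry none, so a difference in culture or preparation cannot be told apart from the condition in the comparisons with siME2+αKG.

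E2F proteins bind the promoters of genes for DNA replication and cell division. E2F1, E2F2 and E2F3 are known as activators, E2F4 and E2F5 act mostly as repressors together with pocket proteins, and E2F7 and E2F8 are atypical repressors that bind DNA without a DP partner. The pocket proteins RB (RB1), p107 (RBL1) and p130 (RBL2) hold E2F factors in check until cyclin D and cyclin E kinases phosphorylate them, and p107 and p130 form the DREAM repressor complex with E2F4 or E2F5 and the MuvB proteins. Several of these genes are themselves known E2F targets, so E2F activity feeds back on the family.

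The promoters of E2F1, E2F2, E2F3, RBL1 and E2F4 are shown, some of which hold the E2F consensus. Sequences were taken from RefSeq promoter entries (GRCh38.p14), and entries were used for 8 of the 10 members. No entry was used for E2F5 or E2F8, so their promoter letters were not examined. Each entry used was placed on hg19 by exact match. The lines give the 120 bases before the annotated start, 5′ to 3′ on the gene's strand, and capitals mark the E2F consensus letters, TTTCCCGC, TTTCGCGC, TTTGCCGC or TTTGGCGC on either strand.
E2F1 (hg19 chr20:32274192-32274311, minus strand): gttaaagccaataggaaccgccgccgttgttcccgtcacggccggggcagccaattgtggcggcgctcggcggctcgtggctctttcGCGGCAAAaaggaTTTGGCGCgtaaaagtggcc
E2F2 (hg19 chr1:23857726-23857845, minus strand): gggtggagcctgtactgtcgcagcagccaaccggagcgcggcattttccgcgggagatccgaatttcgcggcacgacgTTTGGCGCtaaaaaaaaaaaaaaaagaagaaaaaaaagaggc
E2F3 (hg19 chr6:20401990-20402109, plus strand): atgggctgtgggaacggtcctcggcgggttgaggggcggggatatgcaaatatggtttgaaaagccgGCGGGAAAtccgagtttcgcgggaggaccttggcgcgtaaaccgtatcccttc
RBL1 (hg19 chr20:35724401-35724520, minus strand): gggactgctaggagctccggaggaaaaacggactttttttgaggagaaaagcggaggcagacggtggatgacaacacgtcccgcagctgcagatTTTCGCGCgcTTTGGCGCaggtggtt
E2F4 (hg19 chr16:67225938-67226057, plus strand): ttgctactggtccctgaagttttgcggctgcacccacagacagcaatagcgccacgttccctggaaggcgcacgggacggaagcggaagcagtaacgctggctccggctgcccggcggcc

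The E2F letters were found in 4 of the 8 members whose entries were used. They were found in 3.31% of all 35116 entries of 300 bases and in 4.11% of the 21472 entries of protein-coding genes. E2F1 held a pair, at positions −33 to −26 and −20 to −13 from the start, and RBL1 held a pair at −26 to −19 and −16 to −9. E2F2 held 1 at −42 to −35 and E2F3 held 1 at −53 to −46. The E2F4, E2F7, RB1 and RBL2 entries had no match, and the RB1 entry lies at an internal start 172699 bases from the canonical one. The CCAAT box (CCAAT, either strand), known as the site of the factor NF-Y, was matched 4 times each in the E2F3 and E2F7 entries and 3 times in that of E2F1, and 1 time in a second RBL2 entry at a later start. Without that second entry 3 of the 8 members held it. It was matched at least 1 time in 34.6% of all entries. On either strand, the letters TTTGAA or TTCGAA of the cell cycle homology region, bound by MuvB, were matched at E2F3 (−65 to −60) and, past the start, at RBL2, against 16.4% of all entries. No match in these members overlapped another. A match describes the letters alone.

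The ChIP libraries held 12955596, 10445326 and 13006504 filtered tags for siME2+αKG, siME2 and siCtrl, so siME2 was the shallowest. On the autosomes and sex chromosomes 28968, 29201 and 31710 peaks were listed in the same order. Of the marker genes for hepatocytes (8), endothelial cells (5 annotated) and leukocytes (6), none had a promoter peak in any list. Of 8 mesenchymal markers 6, 5 and 5 had one in siME2+αKG, siME2 and siCtrl, with VIM, FN1, SPARC and CAV1 in all lists. The 8 hepatocyte markers looked at therefore carried no listed Pol II promoter peak, which describes these genes alone.

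Height is given below as extended ChIP fragments over the highest summit within 1 kb of any annotated start of the gene, and the normalised height is that number per 1000000 filtered ChIP tags. A promoter peak is any peak reaching within 1 kb of a start. A promoter peak was listed for 9 of the 10 members in siME2+αKG (60.8% of all protein-coding genes had one), for 8 in siME2 (61.5%) and for all 10 in siCtrl (63.0%). Where members had a summit, the normalised height ran from 0.926 to 7.18 with a median of 3.86 in siME2+αKG, from 1.53 to 7.08 with a median of 4.21 in siME2, and from 1.00 to 7.61 with a median of 3.92 in siCtrl. The median over all promoters was 4.01, 4.21 and 4.31 in the same order. The members with the lowest siCtrl heights, E2F1 and E2F2, had no siME2 peak and so are not in the siME2 range.

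The order of the members was nearly the same in each library. In siCtrl it ran E2F3, E2F4, E2F7, RB1, E2F5, RBL1, RBL2, E2F8, E2F1 and E2F2. The 95% counting intervals of neighbours overlapped for 8 of 9 neighbour pairs in siCtrl, 7 of 7 in siME2 and 8 of 8 in siME2+αKG. The exception was E2F8 above E2F1 in siCtrl, at heights of 3.08 and 1.08. E2F3 stood above 94.0%, 91.5% and 93.8% of all promoters in siME2+αKG, siME2 and siCtrl, while E2F2 stood above 0.410% in siME2+αKG and 1.44% in siCtrl.

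**Figure D1:**
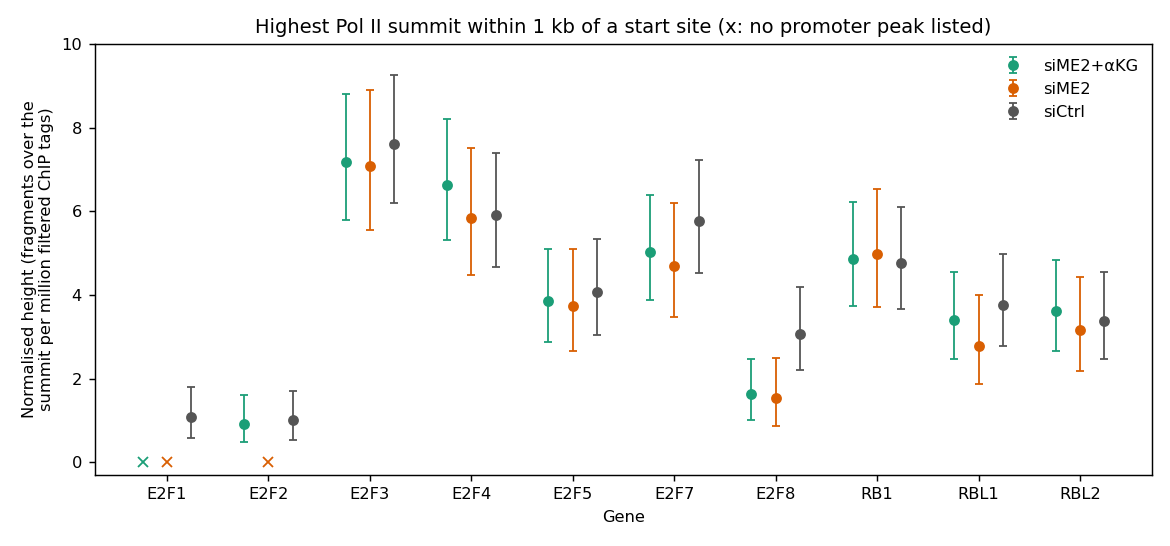
Normalised height of the highest Pol II summit within 1 kb of a start (fragments per 1000000 filtered ChIP tags, y axis) for the 10 genes (x axis) in siME2+αKG, siME2 and siCtrl. Bars are exact Poisson 95% intervals that cover counting error only, and crosses at 0 mark libraries with no listed promoter peak. E2F3 is highest in each library (7.18, 7.08 and 7.61), and E2F8 stands at 1.62, 1.53 and 3.08.

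Among the activators, E2F1 (chromosome 20, 32263283 to 32274191, hg19) had almost no listed Pol II. Its siCtrl promoter peak (chr20:32273489-32274154) held 14 fragments, a normalised height of 1.08, with the summit in intron 1 and 573 bases past the start. No E2F1 promoter peak was listed in siME2+αKG or in siME2. Listed peaks covered 0% of the gene in siME2+αKG and in siME2 and 6.11% in siCtrl.

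E2F2 (chromosome 1, 23832930 to 23857725) held 12 fragments in siME2+αKG and 13 in siCtrl, normalised heights of 0.926 and 1.00, and had no peak in siME2. The summits lay 161 and 156 bases past the start, in the 5′ UTR of exon 1. The log2 ratio of siME2+αKG over siCtrl was −0.11 (−1.37 to 1.14), which turned positive when set against all promoters. Here and below, the range in parentheses after a log2 ratio is its exact 95% interval, which covers counting error between these libraries and not variation between cultures. At the siME2 depth the siCtrl peaks of E2F1 and E2F2 would correspond to 11.2 and 10.4 fragments. Of all siME2 summits listed, the lowest held 7.

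For 2 of the 10 members, then, a promoter peak was listed in siCtrl and not in siME2, against 3.66% of all 12273 genes with a siCtrl promoter peak, and the reverse held for 0 of 8 (1.32%). Both were weak in siCtrl. Of the 161 genes whose highest siCtrl promoter summit held 13 or 14 fragments, 73 had no siME2 promoter peak (45.3%, exact binomial 95% interval 37.5 to 53.4) and 87 had none in siME2+αKG (54.0%, 46.0 to 61.9). Between siME2+αKG and siCtrl 1 of 10 members, E2F1, was listed in siCtrl alone (4.27% of all such genes), and 0 of 9 in siME2+αKG alone (0.919%). Between siME2+αKG and siME2 1 of 9, E2F2, was listed in siME2+αKG alone (1.81%), and 0 of 8 in siME2 alone (2.83%). At this depth the absence of these low peaks from a list does not show that Pol II was absent.

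E2F3 (chromosome 6, 20402110 to 20493945) carried the tallest and widest promoter peak of the family. The main peak held 93 fragments in siME2+αKG, 74 in siME2 and 99 in siCtrl. It was 2772, 2731 and 2270 bp wide and covered both annotated starts. In siCtrl a separate peak of 17 fragments (chr6:20404509-20404761) was listed past it, in a stretch that the main peak covered in siME2+αKG and siME2. The log2 ratio stood at −0.10 (−0.56 to 0.35) between siME2 and siCtrl and at 0.02 (−0.44 to 0.48) between siME2+αKG and siME2. The heights did not differ detectably at this depth, though they were read at different places.

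Within that E2F3 peak the single listed summit lay 148 bases past the first start in siME2+αKG, 1429 in siME2 and 117 in siCtrl. The siME2 summit was thus in intron 1, nearer to the second start, and the other summits were in the 5′ UTR of exon 1. The caller lists 1 summit for a peak, so the siME2 height at the first start is not given. A second peak upstream held 27, 19 and 33 fragments in siME2+αKG, siME2 and siCtrl, with a log2 ratio of −0.48 (−1.38 to 0.38) for siME2 over siCtrl. Its summit, about the same in each list at −510, −522 and −526, lay 134 to 150 bases from the start of ENSG00000289981, a noncoding RNA gene on the opposite strand, and ChIP does not tell the strands apart.

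Of the repressor E2Fs, E2F4 (chromosome 16, 67226058 to 67232821) had the second tallest promoter. Its first-exon summit, in coding sequence, held 86 fragments in siME2+αKG, 61 in siME2 and 77 in siCtrl. The normalised heights were 6.64, 5.84 and 5.92. The log2 ratios stood at −0.02 (−0.53 to 0.48) between siME2 and siCtrl, with a sign that turned both when set against all promoters and when divided by fragment length, and at 0.18 (−0.31 to 0.68) between siME2+αKG and siME2. The intervals of the libraries overlapped.

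Peaks covered 22.6% of E2F4 in siME2+αKG, 17.6% in siME2 and 42.7% in siCtrl, the largest covered share of any member in each list. The siCtrl share includes low peaks inside the gene, with 12 and 11 fragments at exon 5 and intron 7, and a peak that ran from past the 3′ end into the gene. Peaks inside the gene were also listed in siME2+αKG, with 13 fragments at exon 6, and in siME2, with 9 at exon 3 and 18 at exon 10. The siME2+αKG peak past the 3′ end likewise ran into the gene. The peaks past the 3′ end, of 34, 29 and 30 fragments in siME2+αKG, siME2 and siCtrl, have the start of the neighbouring gene ELMO3 within 1 kb of their summits.

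E2F5 (chromosome 8, 86089389 to 86129387) held 50 fragments in siME2+αKG, 39 in siME2 and 53 in siCtrl at its promoter. The log2 ratio stood at −0.13 (−0.76 to 0.50) between siME2 and siCtrl and at 0.05 (−0.59 to 0.69) between siME2+αKG and siME2. No difference between the libraries was detectable. The summit lay in the 5′ UTR of exon 1 (102 bases past the start) in siME2+αKG and in intron 1 (646 and 652) in siME2 and siCtrl, inside 1 wide peak each.

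The atypical members differed in normalised height, with counting intervals apart in each library, while the intervals of their ratios overlapped. E2F7 stood at 5.02, 4.69 and 5.77 in siME2+αKG, siME2 and siCtrl, and E2F8 at 1.62, 1.53 and 3.08. E2F7 (chromosome 12, 77415028 to 77459349) held 65 fragments in siME2+αKG, 49 in siME2 and 75 in siCtrl, with a log2 ratio of −0.30 (−0.85 to 0.24) between siME2 and siCtrl, and of 0.10 (−0.46 to 0.66) between siME2+αKG and siME2. Each list had 1 peak over its start, of 1485, 1284 and 1444 bp. Its summit was upstream of the start in siME2+αKG and siME2 (−386 and −365) and inside exon 1 in siCtrl (112).

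E2F8 (chromosome 11, 19245610 to 19263167) was the one member with a height ratio whose interval lay apart from 0. Its highest promoter summit held 21 fragments in siME2+αKG, 16 in siME2 and 40 in siCtrl, normalised heights of 1.62, 1.53 and 3.08. Against siCtrl the log2 ratio stood at −1.01 (−1.94 to −0.14) for siME2 and at −0.92 (−1.76 to −0.13) for siME2+αKG, the last being −0.80 relative to all promoters. The siME2+αKG over siME2 ratio was 0.08 (−0.93 to 1.12), and it turned negative when divided by fragment length. The highest E2F8 promoter summit was thus lower in both ME2 knockdown libraries than in siCtrl, but the siME2 and siCtrl summits lay at different starts. In such bulk libraries, fewer cells with Pol II at a gene and less Pol II per cell cannot be told apart.

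These E2F8 heights did not come from the same place. Near its 5′ end the gene has the canonical start and an upstream pair. At the upstream pair, siME2+αKG held 21 fragments (chr11:19262754-19263290), siME2 had no listed peak, and siCtrl held 40 (chr11:19262771-19263249). At the canonical start, siME2+αKG held 17 fragments (chr11:19262005-19262433), siME2 held 16 (chr11:19261964-19262424), and siCtrl had no listed peak. The siCtrl list therefore placed E2F8 Pol II at the upstream starts alone, the siME2 list at the canonical start alone, and the siME2+αKG list at both.

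At matched places only 2 of the E2F8 ratios exist. At the upstream starts the log2 ratio of siME2+αKG over siCtrl was −0.92, as above, and at the canonical start that of siME2+αKG over siME2 was −0.22 (−1.30 to 0.86). The siCtrl summit would be 32.1 fragments at the siME2 depth. The lowest summit of the whole siME2 list held 7, but the limit at this site depends on its local background, which is not known for siME2. The local input background recovered at the upstream summit was 4.44 fragments in siME2+αKG and 2.58 in siCtrl, the authors' fold was 3.98 and 11.4, and the part of the differing input in the peak calls was not tested. The siME2+αKG peak had a −log10 q of 5.03, close to the limit of 5 used as a stricter alternative.

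**Figure D2:**
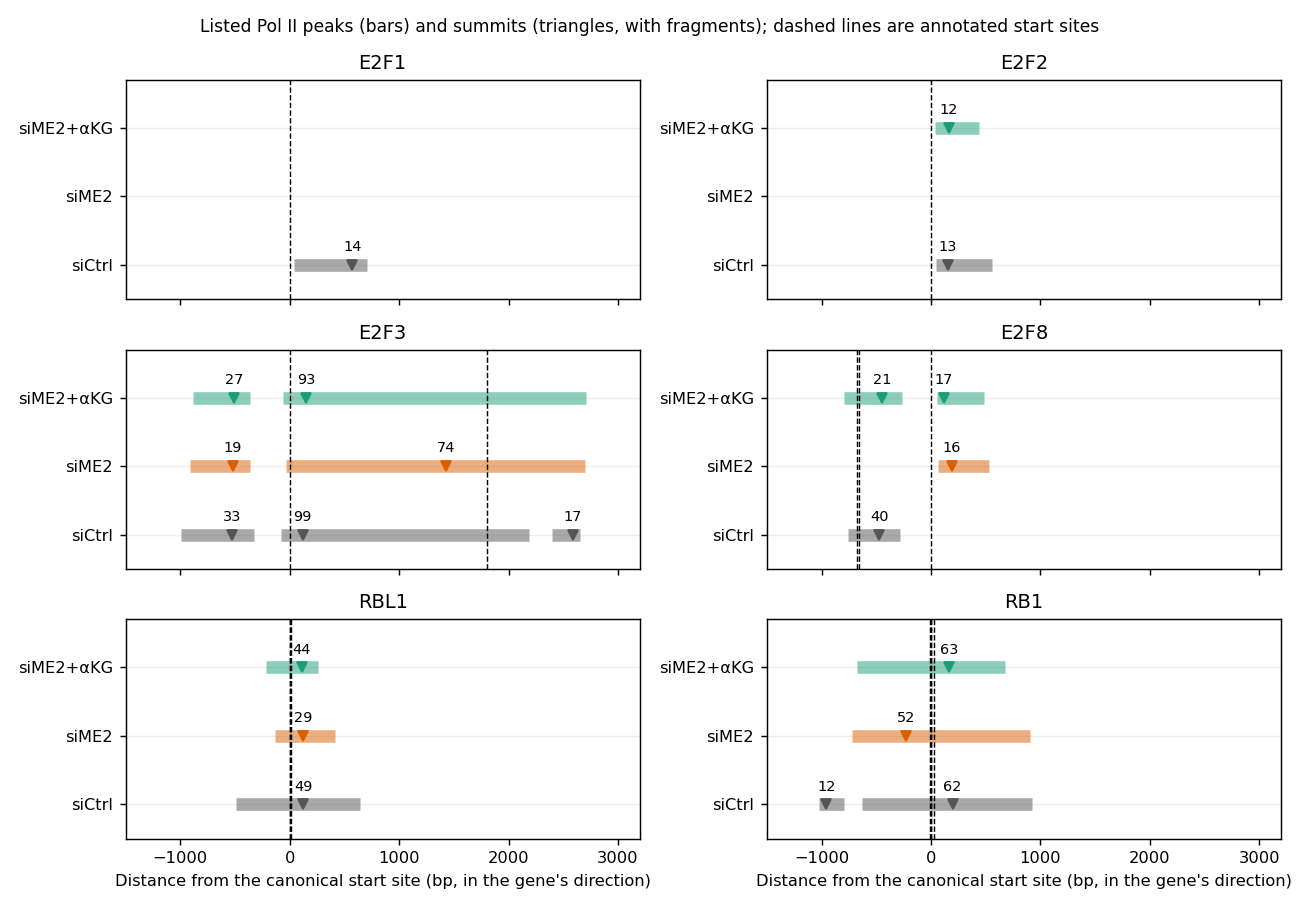
Listed Pol II peaks (bars) and their summits (triangles, labelled with fragments) around the starts of E2F1, E2F2, E2F3, E2F8, RBL1 and RB1 in siME2+αKG, siME2 and siCtrl. The x axis is the distance from the canonical start in the gene's direction in bp, and dashed lines are annotated starts. At E2F8 the siCtrl summit of 40 fragments lies at the upstream starts and the siME2 summit of 16 at the canonical one, while siME2+αKG has both (21 and 17).

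Among the pocket protein genes, RB1 (chromosome 13, 48877880 to 49173572) differed little. Its promoter summit held 63 fragments in siME2+αKG, 52 in siME2 and 62 in siCtrl, normalised heights of 4.86, 4.98 and 4.77. The log2 ratios stood at 0.06 (−0.50 to 0.62) between siME2 and siCtrl and at −0.03 (−0.59 to 0.52) between siME2+αKG and siME2, the second of which turned positive against all promoters. The nearest noncoding start, that of the divergent RB1-DT, lay 197, 37 and 229 bases from these summits. Low intron 2 peaks of 12, 12 and 10 fragments were also listed. The tall peak far downstream, with 77, 89 and 88 fragments, lies at the start of RCBTB2 and falls in the region because the annotated RB1 gene runs past the canonical transcript.

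RBL1, encoding p107 (chromosome 20, 35624752 to 35724400), held 44 fragments in siME2+αKG, 29 in siME2 and 49 in siCtrl, with the summit in coding sequence of exon 1 at 108, 124 and 124 bases past the start. The summits were thus at nearly the same place, downstream of the pair of E2F matches printed above. The log2 ratio stood at −0.44 (−1.16 to 0.25) between siME2 and siCtrl and at 0.29 (−0.42 to 1.02) between siME2+αKG and siME2. Among the members the first was the lowest ratio after E2F8 and the second was the highest, and both intervals include 0. The peak was 476 bp wide in siME2+αKG, 546 in siME2 and 1133 in siCtrl. A noncoding gene on the opposite strand, ENSG00000269846, starts within 104 bases of each summit.

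RBL2, encoding p130 (chromosome 16, 53467889 to 53525560), held 47 fragments in siME2+αKG, 33 in siME2 and 44 in siCtrl. Its log2 ratios stood at −0.10 (−0.80 to 0.59) between siME2 and siCtrl and at 0.20 (−0.47 to 0.89) between siME2+αKG and siME2. Its peak hardly changed in width, at 1101, 1091 and 1145 bp, and no difference was detectable.

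Over the family, the median log2 ratio of siME2 over siCtrl was −0.11 over the 8 members with a summit in both lists, against −0.04 over all 11613 promoters. Past 1.5-fold, 1 of the 8 was lower, E2F8 (3.17% of all promoters), and 0 were higher (1.49%). The E2F8 ratio here is between summits at different starts. Of the 8 ratios 7 were below 0, as were 56.4% of all promoters. RB1 alone stood above 0, joined by E2F4 when ratios were set against all promoters or divided by fragment length.

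For siME2+αKG over siME2 the median was 0.09 over the same 8 members, against −0.08 over all 11443 promoters. None of the 8 was past 1.5-fold lower (4.47%) or higher (1.35%). All but RB1 were above 0, while 63.3% of all promoters were below 0. Relative to the median of all promoters, all 8 were above 0. When heights were instead divided by the fragment length of each library, which moves every promoter by the same amount, 3 of the 8 were above 0 and the median was −0.05. The place of the members relative to all promoters does not depend on that division. This comparison and the previous one share the siME2 library, which enters them with opposite signs.

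For siME2+αKG over siCtrl the median of all promoters was −0.13. As measured, the median of 9 members was −0.08, E2F8 was past 1.5-fold lower (1 of 9, against 4.45% of all promoters), and 0 were higher (0.695%). Set against the median of all promoters, the members' median was 0.04, and E2F4 stood at 0.29, RBL2 at 0.23 and RB1 at 0.16, and E2F7 at −0.07 and RBL1 at −0.02.

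**Figure D3:**
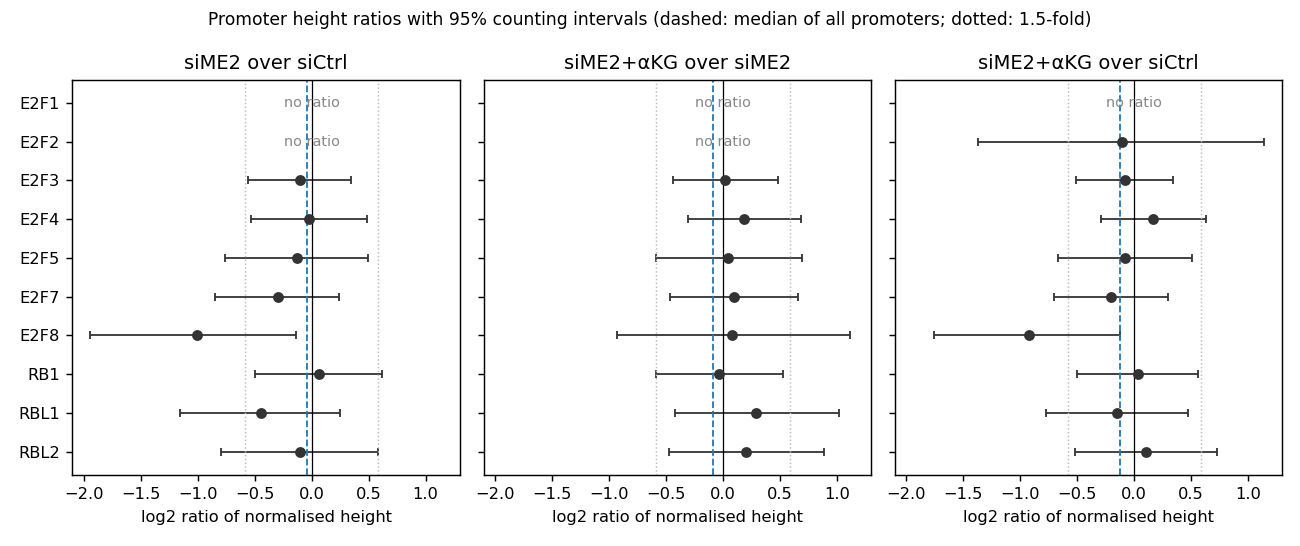
Log2 ratios of normalised promoter height (x axis) for each gene (y axis) in the 3 comparisons, with exact conditional binomial 95% intervals that cover counting error only. Dashed lines give the median of all promoters and dotted lines the 1.5-fold limits. E2F8 lies at −1.01 in siME2 over siCtrl, between summits at different starts, and at −0.92 in siME2+αKG over siCtrl. The intervals of the other genes include 0.

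Peaks of the family regions that overlapped no peak of another list made up shares near those of the whole lists, so the counts are no result about the family. Of the 19 siME2+αKG peaks, 5 overlapped no siME2 peak (25.2% of all siME2+αKG peaks) and 3 no siCtrl peak (18.9%). Of the 18 siME2 peaks, 3 overlapped no siME2+αKG peak (21.3% of all siME2 peaks) and 2 no siCtrl peak (17.1%). Of the 23 siCtrl peaks, 5 overlapped no siME2+αKG peak (29.1% of all siCtrl peaks) and 8 no siME2 peak (31.1%). Apart from E2F8, with 40 fragments in siCtrl and 21 in siME2+αKG where siME2 had no peak, none of these family peaks held more than 18 fragments.

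The genes that work with the family were described from 7 lists, whose medians are to be read beside the −0.04 and −0.08 of all promoters in siME2 over siCtrl and siME2+αKG over siME2. The DP partners TFDP1 and TFDP2, which pair with the typical E2Fs, and the repressor E2F6 had promoter peaks in all 3 libraries. Their median log2 ratio was 0.07 for siME2 over siCtrl and −0.16 for siME2+αKG over siME2, and none was past 1.5-fold. E2F6 held 58 fragments in siME2+αKG, 55 in siME2 and 59 in siCtrl. The MuvB core genes and their partners MYBL2 and FOXM1 had medians of −0.06 and 0.10 over 7 genes, with 0 past 1.5-fold in either comparison. LIN54, the DNA-binding subunit of MuvB, had the lowest siME2 over siCtrl ratio among them at −0.47 (−1.24 to 0.28), followed by FOXM1, a mitotic activator, at −0.30 (−0.77 to 0.16), and LIN9 at −0.28 (−0.87 to 0.30).

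Corepressors that bind pocket proteins had medians of −0.03 for siME2 over siCtrl and −0.18 for siME2+αKG over siME2 over 8 genes. SIN3A, a scaffold of histone deacetylase complexes, stood out with 12 fragments in siME2+αKG, 37 in siME2 and 18 in siCtrl, log2 ratios of −1.94 (−3.01 to −0.96) and 1.36 (0.51 to 2.26) for siME2+αKG over siME2 and siME2 over siCtrl. Its summits were not matched in place. A taller summit, of 60, 41 and 46 fragments in siME2+αKG, siME2 and siCtrl, lay 1103, 1081 and 1046 bases from the nearest start and so outside the 1 kb window in each list. KDM5A, a histone demethylase, gave −0.27 (−0.85 to 0.30) and RBBP7 gave −0.22 (−0.85 to 0.41) for siME2 over siCtrl.

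Kinases and cyclins that phosphorylate pocket proteins had a median of −0.15 over 9 genes for siME2 over siCtrl, with 3 past 1.5-fold lower (3.17% of all promoters) and 0 higher (1.49%). For siME2+αKG over siME2 it was 0.08, with 1 lower (4.47%) and 1 higher (1.35%). The cyclin gene CCNE2 held 44 fragments in siME2+αKG, 20 in siME2 and 44 in siCtrl, CCND2 held 28, 17 and 33, and the kinase gene CDK4 held 66, 46 and 87. Their siME2 over siCtrl ratios were −0.82 (−1.66 to −0.03), −0.64 (−1.58 to 0.25) and −0.60 (−1.15 to −0.07). The kinase gene CDK6, named after its values were seen, went the other way, with 60 fragments in siME2+αKG, 80 in siME2 and 70 in siCtrl. Its log2 ratio was −0.73 (−1.23 to −0.22) between siME2+αKG and siME2 and 0.51 (0.03 to 0.99) between siME2 and siCtrl. The CDK inhibitor genes had medians of −0.23 and −0.11 over the 5 of 7 with a peak, with 0 past 1.5-fold. CDKN2A and CDKN2B, which encode inhibitors of CDK4 and CDK6, had no promoter peak in any list. CDKN1C gave −0.47 (−1.10 to 0.13), and CDKN1A and CDKN2D gave −0.23 each.

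Known E2F targets of the G1/S transition, a list of 24 genes that includes RBL1, E2F1 and E2F2, had a median of −0.27 over 20 genes for siME2 over siCtrl. Of these 15 were below 0 (56.4% of all promoters), 4 were past 1.5-fold lower (3.17%) and 0 higher (1.49%). For siME2+αKG over siME2 the median was 0.06, and 2 were past 1.5-fold higher (1.35%) and 0 lower (4.47%). CCNE2, given above, was followed by RRM2, a ribonucleotide reductase subunit gene, at −0.70 (−1.31 to −0.12), and CDC25A, a phosphatase that activates cyclin-dependent kinases, at −0.68 (−1.45 to 0.05). A promoter peak was listed for 23 of the 24 in siME2+αKG, 21 in siME2 and 24 in siCtrl.

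Genes repressed by DREAM until G2/M had the lowest median of the lists for siME2 over siCtrl, −0.62 over 11 genes, all of them below 0 (56.4% of all promoters were) and 6 past 1.5-fold lower (3.17%). For siME2+αKG over siME2, which shares the siME2 library, the median was 0.47. Of the 11 genes 10 were above 0, where 63.3% of all promoters were below 0, and 5 were past 1.5-fold higher (1.35%). For siME2+αKG over siCtrl the list median was −0.07 relative to all promoters over 12 genes. BIRC5, which encodes survivin, held 51 fragments in siME2+αKG, 19 in siME2 and 48 in siCtrl, with −1.02 (−1.87 to −0.23) between siME2 and siCtrl and 1.11 (0.33 to 1.96) between siME2+αKG and siME2. CDK1 stood at −1.01 (−1.75 to −0.30) and PLK1 at −0.97 (−1.91 to −0.10) for siME2 over siCtrl. The family itself, at medians of −0.11 and 0.09, lay nearer to all promoters than this list did in both comparisons, and that difference was not tested.

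**Figure D4:**
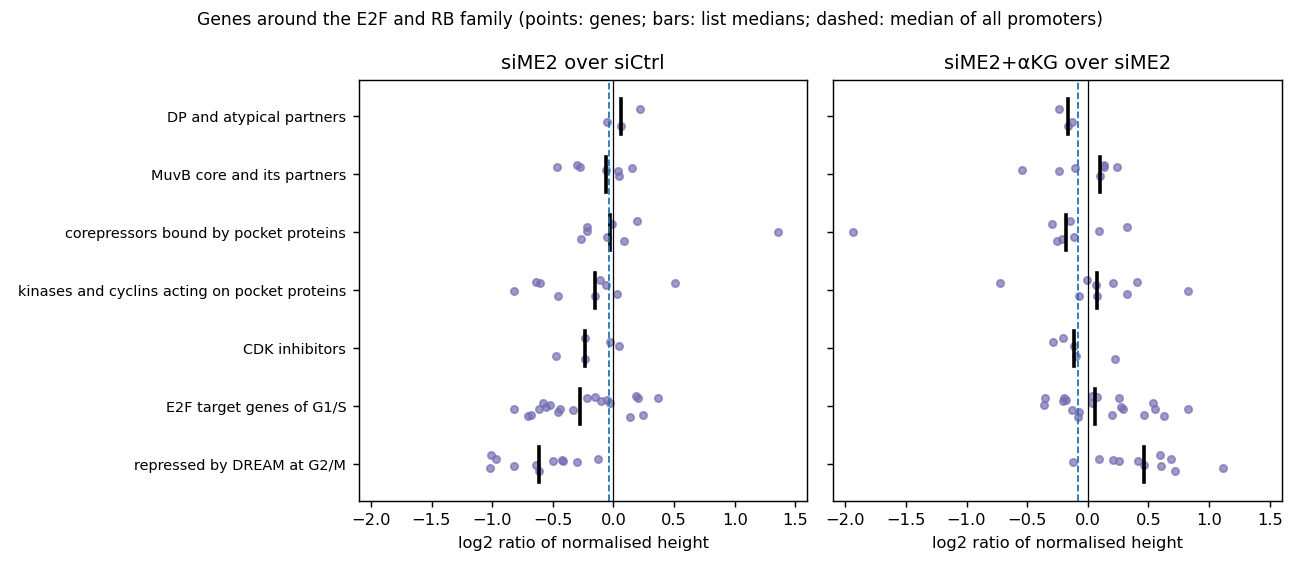
Log2 ratios of normalised promoter height (x axis) for genes of 7 lists around the E2F and RB family (rows), in siME2 over siCtrl and in siME2+αKG over siME2. Points are genes, black bars are list medians and dashed lines the median of all promoters. The DREAM list has medians of −0.62 and 0.47, and the DP and E2F6 list of 0.07 and −0.16.

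Of the 59 other listed genes with a summit in all 3 libraries, the one nearest to E2F8 in its pair of ratios was CDK4, at a distance of 0.42 on the log2 scale. CDK4 had −0.60 for siME2 over siCtrl and 0.21 for siME2+αKG over siME2, against −1.01 and 0.08 for E2F8. Both E2F8 ratios are between summits at different starts. With 3 libraries such a likeness is a description only.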

How the data were processed

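Per the file headers, the authors called each list with MACS 2.2.7.1 on 1 ChIP library against its own input at a p-value limit of 1e-05, keeping 1 tag per position. Alignment to hg19 by Bowtie2 (2.3.5.1) and a different caller version, MACS2 2.2.6, stand in the submitters' processing notes. The deposited pileup is a signal of extended fragments over the summit. The siME2+αKG signal had been scaled by 0.900, and dividing by this factor gave fragments within 0.0055 of whole numbers. Deposited fold enrichment is a ratio to local input and, like the deposited −log10 p and −log10 q values, describes peaks within a list only. Input libraries entered only through the authors' local background.

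Starts came from GENCODE 44 on GRCh37, leaving out readthrough genes. Shared peaks overlap by at least 1 bp. Ratios carry exact conditional binomial 95% intervals and shares Clopper-Pearson intervals, all covering counting error only, and the interval step was tested on simulated data. Tools were Python 3.11.15, SciPy 1.17.1 and pandas 2.3.3.

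All 10 members are named, with up to 3 genes per list by the size of the siME2 over siCtrl ratio, the gene nearest to a member past 1.5-fold, and CDK6, CDKN2A, CDKN2B and the genes neighbouring members singled out after their values were seen. Members and lists were chosen with earlier results of these data known. Alternatives were the scaling, fragment length, promoter window (500 bp or 2 kb), a −log10 q of at least 5, background subtraction, start site choice, flank and overlap.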

Additional observations from a re-analysis of the deposited data

How the results depend on the processing

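Of 84 recomputed counts and medians, 82 stayed within 1.5 times the reported count or within the counting interval, as did 176 of 178 values for single genes and shares. Medians counted as staying could still move. With the longest transcript's start only, RB1 had no ratio and the siME2 over siCtrl member median went from −0.11 to −0.30. Divided by fragment length, that of siME2+αKG over siME2 went from 0.09 to −0.05. The exceptions arose when only the start of the longest transcript was used. Members past 1.5-fold lower in siME2 over siCtrl then numbered 2, and those past 1.5-fold higher in siME2+αKG over siME2 numbered 1, because E2F3 moved to −2.07 and 1.98 as its siME2 summit left the window. For E2F8 in siME2 over siCtrl no alternative compared the same place, since each list had 1 peak there at a different start, so its ratio is not tested by them. No paired analysis was possible because each condition had 1 library. The depth limits statements on E2F1 and E2F2, whose summits held 14 fragments or fewer.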

Other observations

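Several tall peaks in the family regions lie at starts of neighbouring genes. Past the 3′ end of E2F1 a peak with NECAB3 within 1 kb held 66 fragments in siME2+αKG, 61 in siME2 and 82 in siCtrl, with log2 ratios of −0.20 (−0.72 to 0.33) between siME2+αKG and siME2 and of −0.11 (−0.61 to 0.39) between siME2 and siCtrl. In siCtrl it was thus taller than the E2F1 promoter peak of 14 fragments, and the other lists had no E2F1 promoter peak. At RCBTB2, inside the annotated RB1 span, the log2 ratio was −0.52 (−0.98 to −0.06) between siME2+αKG and siME2 and 0.33 (−0.11 to 0.77) between siME2 and siCtrl. Past the 3′ end of E2F5, a peak between the starts of RBIS and CA13 held 26 fragments in siME2+αKG, 25 in siME2 and 26 in siCtrl.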
